A study of Mus musculus with 11 samples.

Results

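The genes described here are 10 neurotrophic factor and receptor genes, namely the ligands Bdnf, Ntf3, Cntf, Fgf1 and Fgf2 and the receptors Ntrk2, Ntrk3, Gfra1, Gfra2 and Ret. They were chosen by name and function from the 39017 genes of the count table, not by a measured value but with earlier results of these data known. All 10 were measured in hippocampal astrocyte RNA of female C57BL/6J mice aged 12 to 14 months, with 1 library per mouse. The 3 groups were wildtype mice with sham surgery (sham WT, 3 mice, F1, F3 and F4), mice with a conditional knockout of estrogen receptor beta in astrocytes and sham surgery (sham ERβ cKO, 4 mice, F1, F3, F4 and F5) and gonadectomized wildtype mice (GDX WT, 4 mice, F1 to F4). Gonadectomy removes the ovaries and was done at 2 months of age. Mice of every group carried RiboTag, an HA-tagged ribosomal protein L22 that Cre switches on, and a Cre driven by the mouse Gfap promoter, so that ribosomes of Cre-expressing cells could be pulled down with their RNA. The ERβ cKO mice also carried an ERβ gene with loxP sites around one exon. The Gfap promoter limits the model, because any cell in which it was ever active can carry the tag. By staining of hippocampus, the paper found the tag with astrocyte markers and not with those of neurons, microglia or oligodendrocytes.

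Neurotrophic factors are secreted proteins that keep neurons alive and shape their connections. BDNF binds TrkB (Ntrk2) and NT-3 (Ntf3) binds TrkC (Ntrk3), both receptor tyrosine kinases. GDNF family ligands bind a membrane-anchored co-receptor, GFRα1 (Gfra1) or GFRα2 (Gfra2), which then joins the kinase RET. CNTF binds CNTFRα and signals through LIFR and gp130 (Il6st), and FGF1 and FGF2 bind the FGF receptors. In the adult hippocampus astrocytes are known as a source of FGFs and CNTF and as carriers of a truncated TrkB that lacks the kinase domain.

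The library totals ran from 16956233 to 18190968 counts, with a median of 17685486. Levels are given in CPM, the count scaled to a common library size after TMM, a scaling that sets the bulk of genes level between libraries. Astrocyte markers were high in every library. The highest of the 10 listed, Slc1a2, a glutamate transporter, ran from 9451 to 15570 CPM and Aldoc, a glycolytic enzyme, from 2282 to 4276 CPM. Neuronal markers were present too, with Camk2a at 2622 to 4291 CPM and Snap25 at 1295 to 2173 CPM, so the RNA was not of astrocytes alone. Esr2, the targeted gene, was at 0 to 0.399 CPM (0 to 7 counts) in all 11 libraries. In sham ERβ cKO it had 0 to 4 counts, so its loss could not be checked from these counts. The paper checked the loss by immunostaining, with less area positive for both ERβ and GFAP in the knockout than in wildtype littermates. Esr1, which encodes estrogen receptor alpha, was at 3.7 to 6.69 CPM. The sham WT libraries stood apart in choroid plexus epithelium markers. Their summed level was 31.4 to 153 CPM there, 2.12 to 3.38 CPM in sham ERβ cKO and 1.19 to 3.86 CPM in GDX WT, with Ttr, the transthyretin of that epithelium, at 24.3, 57 and 122 CPM in sham WT F1, F3 and F4 and at most 2.68 CPM elsewhere. All 3 sham WT libraries carried that choroid plexus RNA, so no comparison with sham WT could be made without it. Ependymal markers were also highest in sham WT, at a summed level of 45.6 to 51.4 CPM. They were at 20.5 to 39.9 CPM in sham ERβ cKO and 19.3 to 37.9 CPM in GDX WT.

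ERβ is a transcription factor whose best known binding site, the estrogen response element (ERE), is made of the arms GGTCA and TGACC around a spacer of 3 bases. The 250 bases before the start of transcription were read for 6 of the 10 genes, in 13 RefSeq windows on GRCm38.p6 (7 of Bdnf, 2 of Ntf3 and 1 each of Ntrk2, Cntf, Gfra1 and Fgf2). No window of Fgf1, Ntrk3, Gfra2 or Ret was read, so the counts of motifs do not cover these genes. On either strand, the full element was in 0 of the 13 windows, against 0.0639% of 32851 windows of all genes. A single arm GGTCA was in 5 of 13 (35.2% of all windows), and the GC box GGGCGG, to which Sp1 binds, in 5 of 13 (32.7%). Both shares were close to those over all windows, and a match is a description, not a binding site. The 2 windows below are printed because they belong to the most abundant gene and to a ligand whose levels in sham ERβ cKO and sham WT did not overlap. The Ntrk2 window is chr13:58806319-58806568 on the plus strand and the Cntf window is chr19:12765633-12765882 on the minus strand. Both read 5′ to 3′ and end at the base before the start, and capitals mark a single ERE arm, which reads in the reverse complement.
Ntrk2: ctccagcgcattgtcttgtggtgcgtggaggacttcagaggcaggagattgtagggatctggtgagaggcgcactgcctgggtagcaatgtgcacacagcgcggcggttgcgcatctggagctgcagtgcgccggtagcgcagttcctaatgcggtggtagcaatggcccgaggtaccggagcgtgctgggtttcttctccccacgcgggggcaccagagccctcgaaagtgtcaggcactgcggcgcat
Cntf: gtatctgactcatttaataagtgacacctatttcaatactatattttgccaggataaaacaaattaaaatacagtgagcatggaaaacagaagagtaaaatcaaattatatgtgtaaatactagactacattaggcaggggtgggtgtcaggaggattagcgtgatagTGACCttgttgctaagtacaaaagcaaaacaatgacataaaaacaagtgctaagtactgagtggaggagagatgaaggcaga
The Ntrk2 window held none of these motifs, and the Cntf window held 1 single arm and no GC box.

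Levels between genes were compared per kilobase of annotated exon. Ntrk2 was highest, at 75.6 ± 9.38 CPM per kb (SD, n = 11), followed by Fgf1 at 36.3 ± 6.11 and Gfra1 at 19.4 ± 2.17. Gfra2 was at 7.24 ± 1.14 and Bdnf at 6.48 ± 0.792 CPM per kb, and Gfra2 exceeded Bdnf in 8 of 11 libraries. Ntf3 (2.61 ± 0.511), Ntrk3 (1.99 ± 0.231) and Cntf (1.59 ± 0.629) came next, with Ntf3 above Ntrk3 in 9 libraries and Ntrk3 above Cntf in 7. Fgf2 (0.460 ± 0.103) and Ret (0.287 ± 0.235) were lowest, with Fgf2 above Ret in 8. The neighbours Gfra2 and Bdnf changed places when the longest transcript was taken as the length, and so did Ntf3 and Ntrk3. The first 3 places were held in all 11 libraries.

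Among the ligands, Fgf1 was the one whose level set GDX WT apart from both sham groups. It encodes acidic FGF, which lacks a secretion signal and binds all FGF receptors, and has 11 annotated transcripts. Fgf1 was at 189, 191 and 192 CPM in sham WT F1, F3 and F4, at 148, 152, 181 and 187 in sham ERβ cKO F1, F3, F4 and F5, and at 234, 229.6, 249 and 229 in GDX WT F1 to F4. After TMM no library of one group overlapped another, with sham ERβ cKO lowest, sham WT between and GDX WT highest. The sham groups lay close. The exact Clopper-Pearson 95% counting interval of sham ERβ cKO F5, 180.7 to 193.5 CPM, overlaps that of sham WT F1, 182.8 to 195.5 CPM. With library size alone as the scaling, the sham groups overlapped. The group means were 191 ± 1.56 (SD, n = 3), 167 ± 20.1 (n = 4) and 236 ± 9.28 CPM (n = 4), and the spread of the sham ERβ cKO mice was the widest.

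Bdnf, the ligand of TrkB and the best studied factor in hippocampal plasticity, did not follow the groups. It was at 37.5, 41 and 41.9 CPM in sham WT F1, F3 and F4, at 47.4, 49, 42.2 and 33 in sham ERβ cKO F1, F3, F4 and F5 and at 36.9, 34.7, 38.1 and 41.8 in GDX WT F1 to F4. The highest and the lowest of the 11 libraries were both sham ERβ cKO mice. Of its annotated exons, 14.4% (896 bases) lie opposite the antisense gene Gm45346 on chromosome 2, and whether the counting used strand is not given in the sources used here.

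Ntf3, the ligand of TrkC, was scarce. Its level was 4.93, 5.07 and 4.07 CPM in sham WT F1, F3 and F4, 5.97, 5.59, 3.43 and 3.7 in the sham ERβ cKO mice (F1, F3, F4, F5) and 3.75, 4.79, 4.47 and 3.4 in GDX WT F1 to F4. All 3 groups overlapped. The sham ERβ cKO mice fell apart by pairs, F1 and F3 above every other library and F4 and F5 at the low end, as they did for Fgf1 with the order turned.

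Cntf, an injury factor that in rodents is made by astrocytes and Schwann cells, was near the limit of detection. It was at 1.83, 2.45 and 2.62 CPM in sham WT F1, F3 and F4, at 1.06, 1.05, 1.8 and 1.65 in sham ERβ cKO F1, F3, F4 and F5 and at 2.58, 2, 0.917 and 0.793 in GDX WT F1 to F4. Every sham ERβ cKO library was below every sham WT library, while the GDX WT mice spanned both. These values rest on 14 to 46 counts, and the lowest, 0.793 CPM, has an exact Clopper-Pearson 95% interval of 0.434 to 1.33 CPM for counting error alone. By the same interval, sham ERβ cKO F4 (1.23 to 2.54 CPM, 32 counts) overlaps sham WT F1 (1.26 to 2.57 CPM, 33 counts). Cntf (chr19:12763660-12765632, minus strand) has 1 annotated transcript, and 78.9% of its exons (847 bases) are also exon of Zfp91 on the same strand, a gene at 143 to 199 CPM. Reads there cannot be assigned to one gene with certainty, so the level of Cntf is uncertain. Over the 11 libraries Cntf and Zfp91 were uncorrelated (Pearson r = 0.00 on log2 values, given as a description).

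Fgf2, basic FGF, a growth factor for neural progenitors, was at 2.44, 2.04 and 3.03 CPM in sham WT F1, F3 and F4. The sham ERβ cKO mice F1, F3, F4 and F5 had 3.4, 2.56, 3.2 and 3.41 CPM and the GDX WT mice F1 to F4 3.58, 4.28, 3.96 and 2.44. The means were ordered sham WT (2.5), sham ERβ cKO (3.15) and GDX WT (3.56), but all groups overlapped. Of the Fgf2 exons 9.44% (640 bases) lie opposite exons of Nudt6, its antisense gene at 3.33 to 6.69 CPM, and 3.76% (255 bases) are shared on the same strand with Gm43439.

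**Figure D1:**
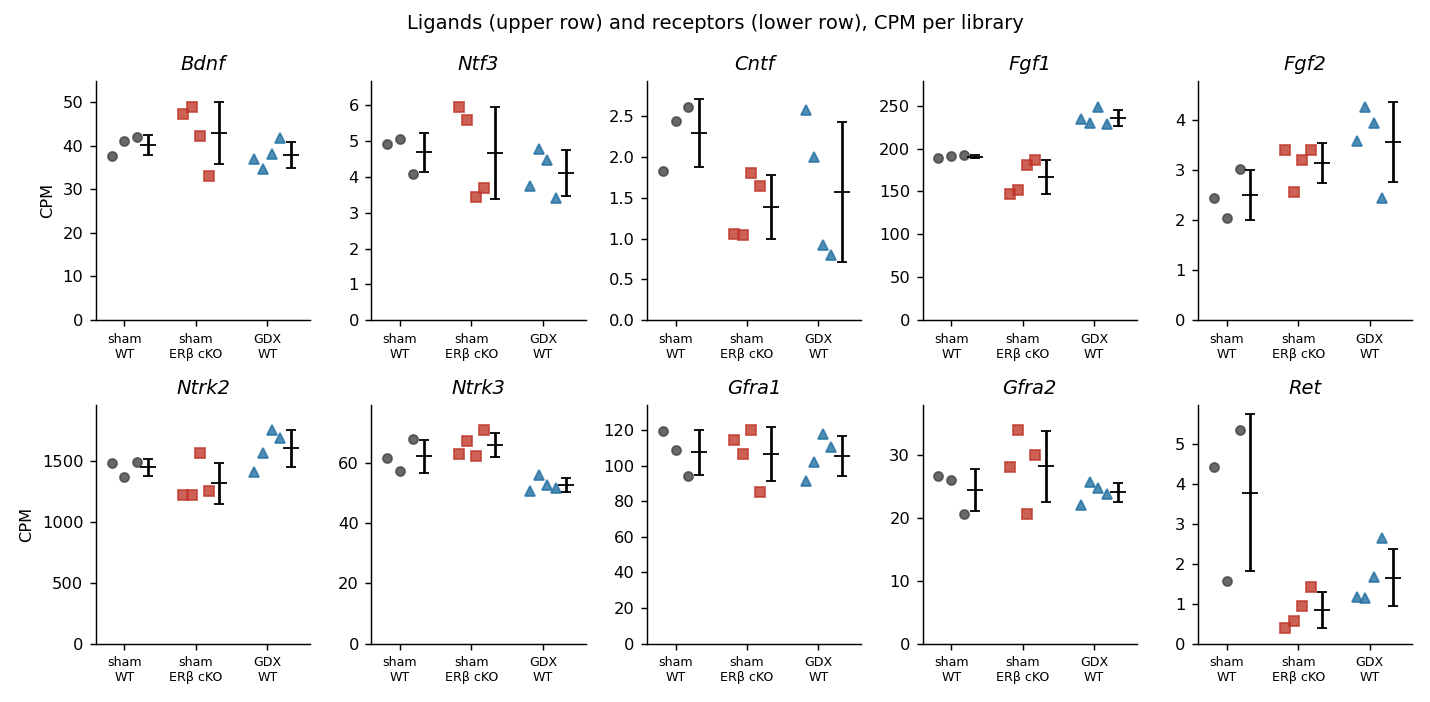
Levels of the 5 ligands (upper row) and 5 receptors (lower row) in CPM, one point per library, in sham WT (n = 3), sham ERβ cKO (n = 4) and GDX WT (n = 4); the cross bar and whiskers beside the points are the group mean ± SD, and every axis starts at 0. Fgf1 is highest in GDX WT (at least 229 CPM), with the sham groups close together (at most 187 CPM in sham ERβ cKO, 189 to 192 in sham WT), whereas Ret is highest in 2 of the 3 sham WT mice.

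Among the receptors, Ntrk2 (TrkB) was by far the most abundant, at 1486, 1372 and 1496 CPM in sham WT F1, F3 and F4. It was at 1224, 1226, 1566 and 1255 CPM in sham ERβ cKO F1, F3, F4 and F5 and at 1413, 1564, 1754 and 1692 CPM in GDX WT F1 to F4. Of the sham ERβ cKO mice, 3 were below all other libraries and 1, F4, was among the highest. Ntrk2 (chr13:58806569-59133970, plus strand) has 10 annotated transcripts and Ntrk3 (chr7:78175959-78738012, minus strand) has 20, and counts per gene do not separate full-length from truncated receptors.

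Ntrk3 (TrkC) was at 61.4, 57.1 and 68 CPM in sham WT F1, F3 and F4. It was at 62.7, 67.3, 62.3 and 70.7 CPM in sham ERβ cKO F1, F3, F4 and F5 and at 50.5, 56, 52.7 and 51.6 CPM in GDX WT F1 to F4. Every GDX WT library was below every library of the other groups, and the sham groups overlapped.

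Gfra1, the co-receptor that prefers GDNF, was at 119, 109 and 94 CPM in sham WT F1, F3 and F4, at 114, 106, 120 and 85.3 in sham ERβ cKO F1, F3, F4 and F5 and at 91.1, 102, 118 and 111 in GDX WT F1 to F4. Its group means, 107 ± 12.8, 106 ± 15.1 and 105 ± 11.5 CPM (SD, n = 3, 4 and 4), lay closer together than the mice within any group. Of its exons 7.6% (416 bases) lie opposite the antisense gene Gm16277, at 13.3 to 21.2 CPM. Gfra2, the co-receptor that prefers neurturin, was at 26.6, 26 and 20.7 CPM in sham WT, at 28.1, 33.9, 20.6 and 30 in sham ERβ cKO and at 22.1, 25.6, 24.7 and 23.8 in GDX WT, in the same order of mice. Its groups overlapped as well.

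Ret, the kinase that signals for the GFRα co-receptors, varied most of the 10 genes, 13.7-fold between the highest and the lowest library, against 1.4-fold for Gfra1. It was at 4.44, 1.57 and 5.35 CPM in sham WT F1, F3 and F4 (80, 27 and 92 counts). In sham ERβ cKO F1, F3, F4 and F5 it was at 0.390, 0.582, 0.956 and 1.42 CPM (7, 10, 17 and 25 counts) and in GDX WT F1 to F4 at 1.18, 1.14, 1.66 and 2.66 CPM (21, 20, 29 and 47 counts). Every sham ERβ cKO library was below every sham WT library, although sham WT F3 was close to the highest of them: the exact Clopper-Pearson 95% counting interval of F3, 1.04 to 2.29 CPM, overlaps that of sham ERβ cKO F5, 0.920 to 2.10 CPM.

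The first comparison asks what loss of ERβ in astrocytes changed in mice with ovaries. Against sham WT, 0 of the 10 genes were called in sham ERβ cKO at an adjusted p below 0.1 (edgeR's quasi-likelihood test, Benjamini-Hochberg over 19938 genes), where 6 genes, 0.0301% of those tested, were called in all. Ret came nearest. Its log2 fold change was -2.17 (edgeR, adjusted p = 0.196) and its mean log2(CPM + 0.5) was lower by -1.61 (SE 0.52), with a two-sided exact permutation p of 0.0571, the smallest that 3 against 4 mice allow. DESeq2 gave Ret an adjusted p of 0.0152, and edgeR called it without sham WT F3 (adjusted p = 0.0830) or without sham ERβ cKO F5 (adjusted p = 0.0214), and at 0.196 to 0.706 when any other mouse was left out. Beside this result stand the choroid plexus markers. Their mean log2(CPM + 0.5) was 0.98, 2.04 and 2.64 in sham WT F1, F3 and F4 and -0.53 to -0.32 in sham ERβ cKO, so that both were high in sham WT, but the sham WT mouse with the lowest Ret, F3, was not the one with the lowest markers, F1. The part of choroid plexus RNA in the level of Ret was not tested.

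At an unadjusted p below 0.05, 1 of the 10 genes differed, Ret, against 5.33% of all genes tested. The groups did not overlap for 3 of 10, Ret, Cntf and Fgf1, each lower in sham ERβ cKO, against 6.33% of all genes. For each, the counting intervals of the nearest libraries overlap, at 1.8 against 1.83 CPM for Cntf and 187 against 189 CPM for Fgf1. For Cntf the log2 fold change was -0.72 (edgeR, adjusted p = 0.948) and for Fgf1 -0.19 (adjusted p = 0.949), with a difference of mean log2(CPM + 0.5) of -0.58 (SE 0.20) and -0.20 (SE 0.09) and an exact permutation p of 0.0571 for each. The remaining 7 genes had log2 fold changes from -0.14 (Ntrk2) to 0.33 (Fgf2) and adjusted p-values of 0.966 or more by edgeR. The median log2 fold change of the 10 genes was -0.01, against 0.00 for all genes tested. Ependymal markers moved with Cntf. Their summed level was 45.6 to 51.4 CPM in sham WT and 20.5 to 39.9 CPM in sham ERβ cKO, with 4 of 6 at an unadjusted p below 0.05, 0 called by edgeR and 1, Drc7, by DESeq2. Their part in the level of Cntf was not tested.

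The second comparison asks what loss of ovarian hormones changed in wildtype mice, and it shares the sham WT libraries with the first. In GDX WT, 0 of 10 genes were called against sham WT, where 0.437% of 19695 genes were called. At an unadjusted p below 0.05 there were 3 of 10 (Fgf1, Ret and Ntrk3), against 7.98% of all genes, and 2 of 10 did not overlap (Fgf1 and Ntrk3), against 8.43%. Fgf1 was higher in GDX WT, with a log2 fold change of 0.30 (edgeR, adjusted p = 0.154). The difference of mean log2(CPM + 0.5) was 0.30 (SE 0.03), larger than the spread between mice of either group, with an exact permutation p of 0.0571, again the smallest possible. DESeq2 called Fgf1 (adjusted p = 0.0267), as did edgeR without sham WT F4 (adjusted p = 0.0868), and without any other mouse its adjusted p was 0.153 to 0.507. Ntrk3 was at a log2 fold change of -0.24 (edgeR, adjusted p = 0.503), and its difference of -0.23 (SE 0.08) had an exact permutation p of 0.0571. Ret was at -1.19 (edgeR, adjusted p = 0.307), with the choroid plexus markers at -0.67 to -0.20 in GDX WT on the same scale as above. Of the other 7 genes, Cntf (-0.55) and Fgf2 (0.51) had the widest log2 fold changes, at adjusted p of 0.799 and 0.726. The median of the 10 was -0.06, against -0.01 for all genes.

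The third comparison sets sham ERβ cKO against GDX WT, which differ in genotype and surgery together, so the share of each cannot be told apart. It shares libraries with both comparisons above. Called genes were 2 of 10, against 4.15% of 19759 genes. Fgf1 was lower in sham ERβ cKO, with a log2 fold change of -0.51 (edgeR, adjusted p = 0.0194) and a difference of -0.50 (SE 0.09) on the log2(CPM + 0.5) scale. Ntrk3 was higher, with a log2 fold change of 0.31 (edgeR, adjusted p = 0.0949) and a difference of 0.32 (SE 0.05). For both, the groups of 4 did not overlap, and the exact permutation p was 0.0286, the smallest that 4 against 4 allow. Those 2 of 10 stand against 9.82% of all genes without overlap. The call of Fgf1 was kept when each mouse was left out in turn (adjusted p = 2.72e-04 to 0.0946). That of Ntrk3 was lost without sham ERβ cKO F1 (adjusted p = 0.179) or F3 (0.183) and without GDX WT F1 (0.207), F2 (0.131), F3 (0.219) or F4 (0.220). At an unadjusted p below 0.05 there were 4 of 10 (Fgf1, Ntrk3, Ntrk2 and Ret), against 17.2% of all genes. Ntrk2 was at -0.30 (edgeR, adjusted p = 0.148). DESeq2 gave Ntrk2 an adjusted p of 0.0948, and edgeR called it without sham ERβ cKO F4 (adjusted p = 0.0354) or F5 (0.0943). Ret was at -0.99 (edgeR, adjusted p = 0.261), and the median of the 10 genes was -0.09, against 0.00 for all genes.

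**Figure D2:**
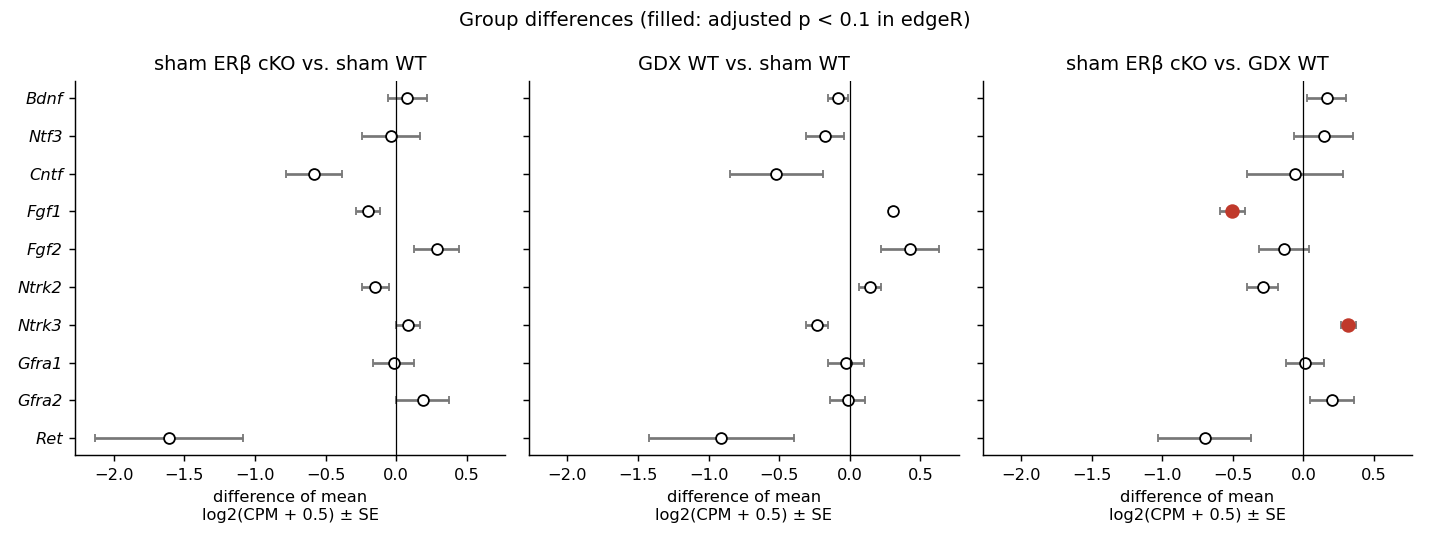
Difference of mean log2(CPM + 0.5) ± SE for each of the 10 genes in the 3 comparisons, where positive values are higher in the group named first and filled circles are called by edgeR at an adjusted p below 0.1. Only Fgf1 and Ntrk3, in sham ERβ cKO against GDX WT, are filled, while Ret lies farthest from 0 in each panel with the widest or second widest SE.

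Astrocyte markers moved the same way as Fgf1. Of the 10 listed, 8 were called lower in sham ERβ cKO than in GDX WT (median log2 fold change -0.48), and their summed level was 16770 to 20400 CPM in sham ERβ cKO, 19150 to 22090 in sham WT and 22130 to 27110 in GDX WT. The RNA came from a pulldown of tagged ribosomes. In it, fewer cells of a type, less RNA per cell and more RNA of untagged cells cannot be told apart. Among 80 relations between the 10 genes and the means of 8 marker lists over 11 libraries (adjusted p-values are over these 80, and the choroid plexus list is left out because it splits the libraries into sham WT and the rest), that of Fgf1 with astrocyte markers was the closest, with Pearson r = 0.976 (permutation p = 1e-05, the smallest that 100000 permutations give, adjusted p = 8e-04) and Spearman rho = 0.964 (permutation p = 3e-05, adjusted p = 0.0024). It was 0.955 without the 2 libraries farthest from the median and 0.896 for deviations from the group means. So the Fgf1 level was also computed relative to the mean of the 10 markers in the same library, a choice made after the data were seen. It was then -2.09 ± 0.09 in sham WT, -2.03 ± 0.03 in sham ERβ cKO and -2.03 ± 0.05 in GDX WT on the log2 scale (mean ± SD, n = 3, 4 and 4). Sham ERβ cKO and GDX WT differed by -0.01 (SE 0.03, exact permutation p = 0.886), against -0.50 before.

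Ntrk2 followed the same markers less closely, with r = 0.833 (permutation p = 0.00183, adjusted p = 0.0732) and rho = 0.755 (permutation p = 0.0102, adjusted p = 0.242), 0.703 without the 2 farthest libraries and 0.613 within groups. Its log2 level relative to the astrocyte markers was 0.84 in sham WT, 0.94 in sham ERβ cKO and 0.74 in GDX WT. The difference of 0.21 (SE 0.09, exact permutation p = 0.114) between sham ERβ cKO and GDX WT had the opposite sign to that of its CPM. Ntrk3 ran against the markers between groups, with r = -0.671 (permutation p = 0.0255, adjusted p = 0.247) and rho = -0.727 (permutation p = 0.0142, adjusted p = 0.242), -0.687 without the 2 farthest libraries. Within groups r had the opposite sign, 0.423, so the relation rests on the differences between groups. Ntrk3 was higher in sham ERβ cKO than in GDX WT relative to astrocyte markers, by 0.81 (SE 0.09), and relative to the 10 neuronal markers, by 0.26 (SE 0.06), each with an exact permutation p of 0.0286. The summed neuronal markers were at 9573 to 11040 CPM in sham ERβ cKO and 9496 to 10120 in GDX WT, with 1 of 10 called. Between sham ERβ cKO and GDX WT, endothelium and pericyte markers moved with Ntrk3. All 9 were higher in sham ERβ cKO than in GDX WT (median log2 fold change 0.72, 7 at an unadjusted p below 0.05, 1 called by edgeR and 6 by DESeq2), with summed levels of 167 to 212 against 90.9 to 153 CPM that did not overlap. Ntrk3 was related to their mean with r = 0.683 (permutation p = 0.0238, adjusted p = 0.247) and rho = 0.709 (permutation p = 0.0181, adjusted p = 0.242), 0.627 without the 2 farthest libraries and 0.761 within groups. In GDX WT against sham WT these markers had a median log2 fold change of 0.05 (6 higher, 3 lower), against -0.24 for Ntrk3. In sham ERβ cKO against sham WT the median of these markers was 0.72 (8 higher, 1 lower), against 0.08 for Ntrk3. Their part in the difference of Ntrk3 was not tested.

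**Figure D3:**
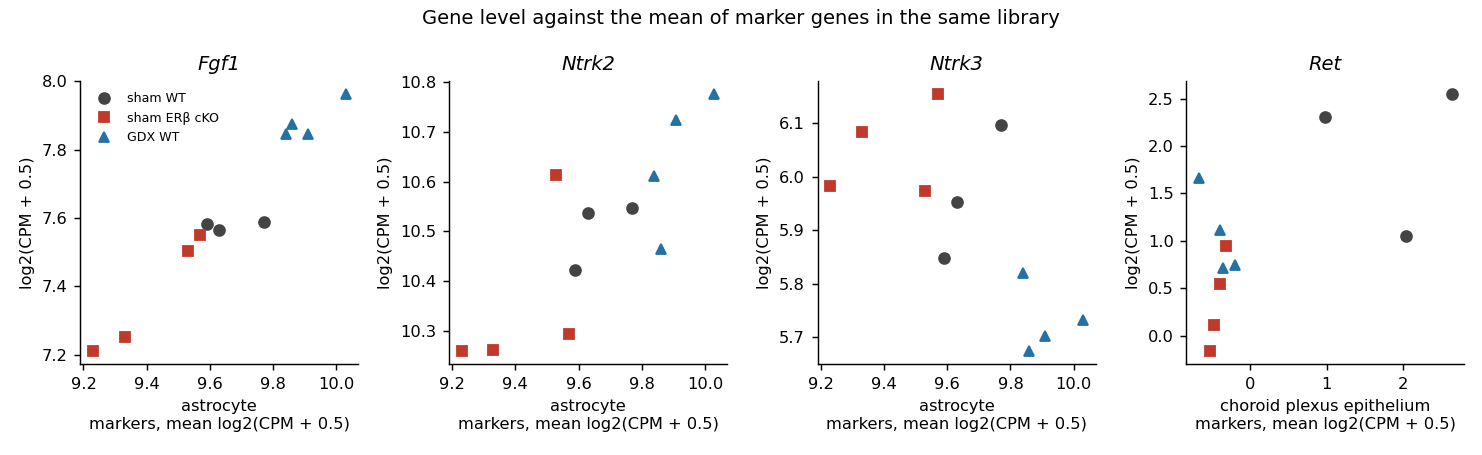
Level of Fgf1, Ntrk2 and Ntrk3 against the mean of 10 astrocyte markers, and of Ret against the mean of 8 choroid plexus epithelium markers, in the same library, all as log2(CPM + 0.5), with one point per library. Fgf1 rises with the astrocyte markers over all libraries (r = 0.976, and 0.896 for deviations from the group means). Within sham WT alone Fgf1 is nearly level, at 189 to 192 CPM. Ntrk3 is lowest in the 4 GDX WT libraries, and the 3 sham WT libraries lie apart on the choroid plexus axis (0.98 to 2.64).

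Cntf followed the ependymal markers, with r = 0.798 (permutation p = 0.00366, adjusted p = 0.0976) and rho = 0.764 (permutation p = 0.0084, adjusted p = 0.242), 0.643 without the 2 farthest libraries and 0.690 within groups. The ependymal list was kept, though its mean log2 level was also highest in the sham WT libraries (2.62 to 2.78). It was 1.31 to 2.39 in sham ERβ cKO and 0.91 to 2.34 in GDX WT. Each of the remaining relations had an adjusted p above 0.1. The closest of them was Cntf with oligodendrocyte precursor markers (r = -0.769, permutation p = 0.00524, adjusted p = 0.105, and rho = -0.673, permutation p = 0.0271, adjusted p = 0.309). It was -0.672 without the 2 farthest libraries and -0.744 within groups. Gfra1 was lower where microglial markers were higher (r = -0.706, permutation p = 0.0164, adjusted p = 0.247, and rho = -0.709, permutation p = 0.0182, adjusted p = 0.242), -0.765 without the 2 farthest and -0.730 within groups. Among the 10 genes themselves the most positive relation was Ntrk2 with Fgf1 (r = 0.789) and the most negative was Ntrk3 with Fgf1 (r = -0.755). These are descriptions over 11 libraries that share 3 groups and the same mixture of cells.

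**Figure D4:**
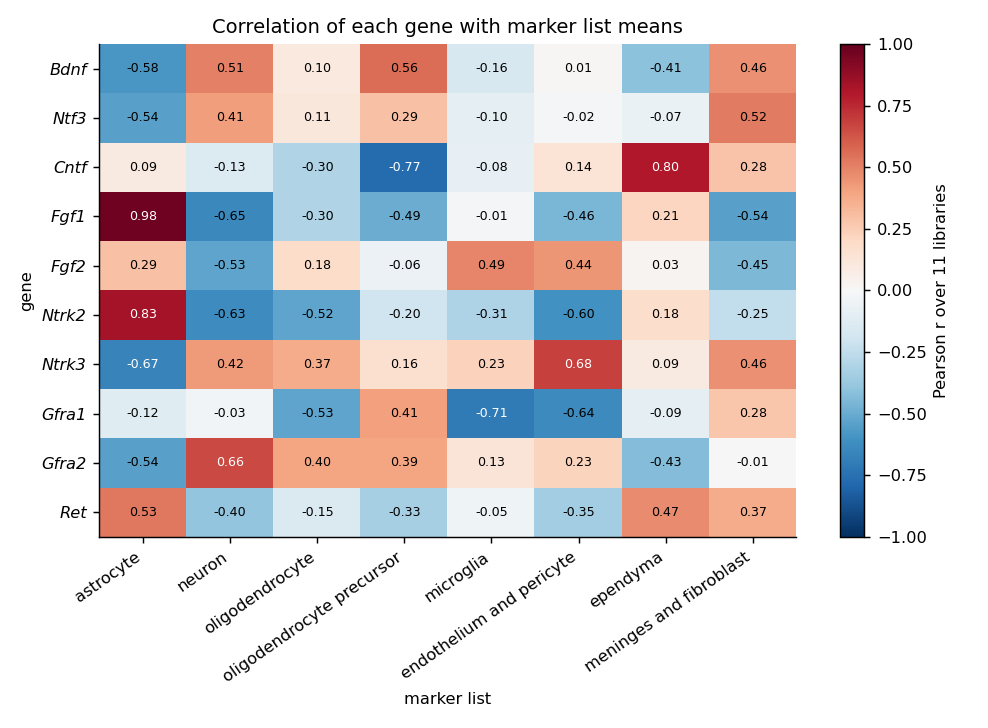
Pearson r over 11 libraries between each of the 10 genes (rows) and the mean log2 level of each of 8 marker lists (columns), from blue (-1) to red (1), with the value in each field; the choroid plexus list is left out because it separates sham WT from the rest. The highest field is Fgf1 with astrocyte markers (0.976), followed by Ntrk2 with astrocyte markers (0.833) and Cntf with ependymal markers (0.798).

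The genes most like each one were named by the highest r of log2(CPM + 0.5) over the 11 libraries among 15217 genes with a mean of at least 1 CPM. For Fgf1 they were Tspan7 (0.979), Tor1aip1 (0.971) and the astrocytic connexin gene Gjb6 (0.971). For Ntrk2 they were Tmco3 (0.972), Sft2d2 (0.951) and Paqr8 (0.940), and for Ntrk3 they were Uckl1os (0.961), Rnf123 (0.957) and Syt2 (0.955). Ret was most like Rfx4, a transcription factor of astrocytes and ependyma (0.918), Gm16192 (0.903) and Trip10 (0.898). Ntf3 was most like Prdm8 (0.973), Kcnip2 (0.903) and Prox1os (0.871). Prdm8 encodes a transcriptional repressor and Prox1os lies antisense to Prox1, a factor of dentate granule cells. Bdnf was most like Pcdhb16 (0.954), Atp8a1 (0.941) and Nsd3 (0.939), Fgf2 like Ilk (0.966), Taf10 (0.946) and Fbf1 (0.911), and Cntf like Mus81 (0.945), Relb (0.929) and Gm20501 (0.913). For Gfra1 they were Tbc1d14 (0.936), Foxk2 (0.935) and Lrp12 (0.932), and for Gfra2 Adat1 (0.959) and Slc26a4 (0.900). These values are descriptions of 11 libraries and say nothing of shared function or control.

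The partners of the 10 genes were read from a list of 86 genes of the same pathways. Several ligands of the listed receptors were near 0. Gdnf was at 0 to 0.398 CPM, Nrtn at 0 to 0.896, Artn at 0.116 to 0.698, Pspn at 0 to 0.698 and Ntf5 at 0 to 0.407. The receptors Gfra3 and Fgfr4 did not exceed 0.169 CPM and Gfral had no counts. Of the co-receptors, Gfra4 (the persephin receptor) was at 36 to 52.1 CPM, and Ncam1, an alternative GDNF receptor, at 183 to 242. Sort1, a sorting receptor for pro-neurotrophins, was at 575 to 866 CPM. The CNTF receptor genes were well measured, Cntfr at 93.1 to 182, Lifr at 64 to 123 and Il6st at 96.3 to 157 CPM, and so were the FGF receptor genes Fgfr3 (322 to 511 CPM), Fgfr1 (159 to 256) and Fgfr2 (42.2 to 69.8). The secreted factors Fgf9 and Fgf10 were at 7.81 to 16.7 and 14.8 to 23.9 CPM.

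In sham ERβ cKO against sham WT, 0 of 71 listed genes that passed the filter on low counts were called by edgeR. DESeq2 called 1, Ret. By edgeR 8 had an unadjusted p below 0.05, 2 higher and 6 lower. Among all genes 0.0301% were called and 5.33% had such a p. Of the 2 higher genes, Fgf17 had 0 counts in every sham WT library and 5 to 12 in sham ERβ cKO. It passed the filter only through sham ERβ cKO, which fixed its direction. In the FGF list 20 of 25 tested genes had a negative log2 fold change (median -0.20), and in the list of feedback targets, genes induced by receptor kinase signaling, 7 of 8 (median -0.16), with 0 called in each by edgeR or DESeq2, against a median of 0.00 for all genes tested. The astrocyte markers leaned the same way by a like amount, 10 of 10 negative with a median of -0.20 and 4 at an unadjusted p below 0.05, and their part in the lean of the lists was not tested. In GDX WT against sham WT, 1 of 70 was called, Kl (α-Klotho, the co-receptor of FGF23), and 11 had an unadjusted p below 0.05, against 0.437% and 7.98% of all genes. Kl was at 25.2, 39.9 and 46.1 CPM in sham WT F1, F3 and F4 and at 22.4, 21, 24.8 and 20.7 CPM in GDX WT F1 to F4, with a log2 fold change of -0.74 (edgeR, adjusted p = 0.0573). Kl is known for its expression in choroid plexus, and the sham WT mice ranked the same by Kl and by the choroid plexus markers given above. The part of that RNA in the result was not tested.

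In sham ERβ cKO against GDX WT, 7 of 72 were called, 2 higher and 5 lower, with a median log2 fold change of -0.08 over the list against 0.00 for all genes, and 17 had an unadjusted p below 0.05. Among all genes 4.15% were called and 17.2% had such a p. Beside Fgf1 and Ntrk3 they were Fgf5, Fgfbp3, Spred1, Cntfr and Il6st. Fgf5, the factor that ends hair growth, was higher (log2 fold change 1.21, adjusted p = 0.0868 by edgeR), at 6.19, 3.43, 3.49 and 2.05 CPM in sham ERβ cKO and 0.896, 1.43, 1.66 and 2.49 CPM in GDX WT. Fgfbp3, a carrier that releases FGFs from the matrix, was lower (-0.83, adjusted p = 0.0302), at 5.52, 5.76, 7.42 and 5.69 against 10.4, 11, 13.1 and 8.44 CPM. Spred1, an inhibitor of Ras signaling, was at -0.47 (adjusted p = 0.0692), Cntfr at -0.50 (0.0820) and the gp130 gene Il6st at -0.36 (0.0976). Relative to the mean of the astrocyte markers, the differences of Spred1 (0.02, SE 0.17) and Cntfr (-0.02, SE 0.11) were near 0, that of Fgfbp3 was -0.26 (SE 0.14, exact permutation p = 0.114) and that of Il6st was 0.16 (SE 0.08, exact permutation p = 0.114). Of the 5 genes called lower, Fgf1, Spred1 and Cntfr thus had mean differences near 0 relative to the astrocyte markers between these groups. For Spred1 single mice varied more, from -1.802 to -1.023 in sham ERβ cKO against -1.455 to -1.368 in GDX WT.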

How the data were processed

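The deposited table holds raw read counts per Ensembl gene, which the authors made from single-end reads of KAPA Stranded libraries with bcl2fastq 2.17, FastQC, Trimmomatic and QuasR on mm10. How strand and multi-mapped reads were handled, and with which annotation, is not given in the sources used here. Of 39017 genes, 37607 matched GENCODE M21 symbols, and the 1410 others held 0.515% of counts. A gene was left out where more than 3 of the libraries compared had a count below 1. TMM scaling and edgeR 4.0.16 (R 4.3.3, limma 3.58.1), with the robust quasi-likelihood test, were fitted to the libraries of each comparison over all genes, and genes were called at a Benjamini-Hochberg adjusted p below 0.1. SEs come from the spread of log2(CPM + 0.5) between libraries. Exact permutation tests were two-sided. Alternatives were DESeq2 1.42.0, other scalings, filters and thresholds, 1 fit over 3 groups, mouse number as a block and each mouse left out. The scripts were tested on simulated counts. The members, the gene lists and the markers were chosen with earlier results of these data known. Named were all members, listed genes called, receptors and ligands by range, the 3 genes most like each member and overlapping genes, except for some items not reported here. Promoter windows are from RefSeq. The p-values of group comparisons measure the spread between mice. Those of the marker relations come from shuffling the 11 libraries without regard to group. Intervals cover counting error only.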

Additional observations from a re-analysis of the deposited data

Results flagged for a closer look

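In the sham ERβ cKO group, Ntrk2 in mouse F4 lay at 1566 CPM, far from the other 3 mice at 1224 to 1255 CPM. Its gap to the nearest mouse was 0.909 of the range of the group, above Dixon's critical value for 4 samples. Of 20 groups of 4 tested for the 10 genes, 1 was marked in this way, and chance alone marks about 1 in 20.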

How the results depend on the processing

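Of the fold changes recomputed with all mice under other settings, 227 kept their direction and side of the threshold, 9 became called, 3 lost their call and 3 changed sign. These counts include the differences of Fgf1 and Ntrk3 relative to the astrocyte markers, judged by an exact permutation p below 0.05 and not by edgeR. Of these, Fgf1 is among the 3 that lost their call and Ntrk3 among the 227. Genes called in sham ERβ cKO against sham WT (0 of 10 and 0 of 71 listed) were 1 and 1 without a filter on low counts, 1 and 1 with DESeq2, and 0 to 1 and 0 to 1 when a mouse was left out. In GDX WT against sham WT (0 and 1) they were 2 and 4 without the filter, 1 and 3 with DESeq2, 0 listed with 1 fit over 3 groups or at an adjusted p below 0.05, and 0 to 1 and 0 to 3 when a mouse was left out. In sham ERβ cKO against GDX WT (2 and 7) they were 1 of the 10 without the filter, 1 and 2 at an adjusted p below 0.05, and 1 to 5 and 1 to 12 when a mouse was left out. Calls over all genes moved too: when a mouse was left out they ran from 7 to 67, from 11 to 275 and from 104 to 2450 in the 3 comparisons, and DESeq2 called 52, 206 and 1628. Mouse numbers are shared between groups but same-numbered mice did not deviate together (r from -0.26 to 0.178 over 9 pairs), so they only name mice. With the number as a replicate block the counts were 1 and 2 in the first comparison and 4 and 15 in the third, while calls over all genes rose from 6 to 76 and from 820 to 3117, and the fold changes of Gfra1 (0.085) and Ntf3 (0.0627) in the first turned positive. It changed no other direction, and it called Ret in the first comparison (adjusted p = 0.0297) and Ntrk2 (0.0225) and Ret (0.0516) in the third. Ntf3 also turned positive with library size alone (0.0093). When a mouse was left out, log2 fold changes near 0 took both signs: Gfra1 (-0.0915 to 0.0804) and Ntf3 (-0.1305 to 0.1201) in the first comparison, Gfra1 (-0.1118 to 0.0572) and Gfra2 (-0.1258 to 0.0462) in the second, Gfra1 (-0.0533 to 0.0936) and Cntf (-0.3962 to 0.173) in the third. The causes were not tested. Low counts limit the precision of Ret and Cntf.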
